A study of Rattus norvegicus with 12 samples.

Results

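Outside chromosome 18, the retinal m6A map of these rats was densest in 9 windows of 1 Mb on chromosomes 1, 2, 7, 8, 10 and 16. They were chosen from the peak lists themselves, as the windows in which most m6A regions start, averaged over 6 libraries. N6-methyladenosine (m6A) is a methyl mark that a methyltransferase complex places on adenosines of mRNA. Reader proteins bind it and influence splicing, export, translation and decay of the transcript. The antibody can only enrich RNA that the tissue makes, so a peak list records marks on expressed transcripts, often close to stop codons and in long exons.

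The 9 windows held 331 union regions, out of 12467 in the whole map. A region is a stretch in which the peak caller found more immunoprecipitated (IP) RNA than input background, and a union region joins the regions of all lists that overlap by at least 1 base, so it can be wider than any region called in a single list. The windows are named here by chromosome, with a letter where a chromosome has several. Window 1 runs from 198 to 199 Mb and window 2 from 188 to 189 Mb. Windows 7a, 7b and 7c run from 11 to 12, 12 to 13 and 117 to 118 Mb. Window 8 runs from 116 to 117 Mb, windows 10a and 10b from 86 to 87 and 109 to 110 Mb, and window 16 from 20 to 21 Mb.

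Retinas came from male Sprague-Dawley rats of about 100 g. Labelled weights were 103.4, 110.5 and 106 g in control replicates 1, 2 and 3, and 100.4, 102.5 and 104 g in the diabetic replicates. Diabetic animals (genotype label Diabetic) received streptozotocin, which kills pancreatic beta cells, intraperitoneally at 60 mg/kg after a 12 h fast on 5 days, and counted as diabetic above 16.7 mmol/L fasting glucose 1 week after the last injection. Controls (genotype label WT) received citrate buffer by the same route. Each group had 3 IP libraries with a peak list each, and the 6 inputs served as the background of those lists. Labels give no animal number, age or time of tissue collection, so the samples are separated only by replicate number and weight. The lists hold no gene names, so the tissue label could not be checked against retinal markers, and the peaks are given by position alone, without gene, exon or UTR. The build of these positions is not given in the sources used here. In whole retina, fewer cells of a type and less RNA per cell cannot be told apart.

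Lists held 9082 to 10552 regions, called on 8175227 to 12354616 reads, the size of the smaller of IP and input, to which the caller scaled its partner. The lists of control replicates 1 and 2 were the shortest and that of diabetic replicate 2 was the longest. Counts below can follow list length, so shares of a list are given beside them.

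By mean number of regions per library the 9 windows held places 2 to 10 among 2026 windows with any region. Place 1, at 64.3, was the window on chromosome 18 that the choice left out. Window 10b led with 38.3 regions, and the last to enter, window 10a, had 25.0. Just outside lay chromosome 8 from 117 to 118 Mb with 24.5, which adjoins window 8, and chromosome 5 from 147 to 148 Mb with 24.0. The median of the 718 windows with a mean of at least 5 regions was 8.33. These numbers made the choice and are given as a description.

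**Figure D1:**
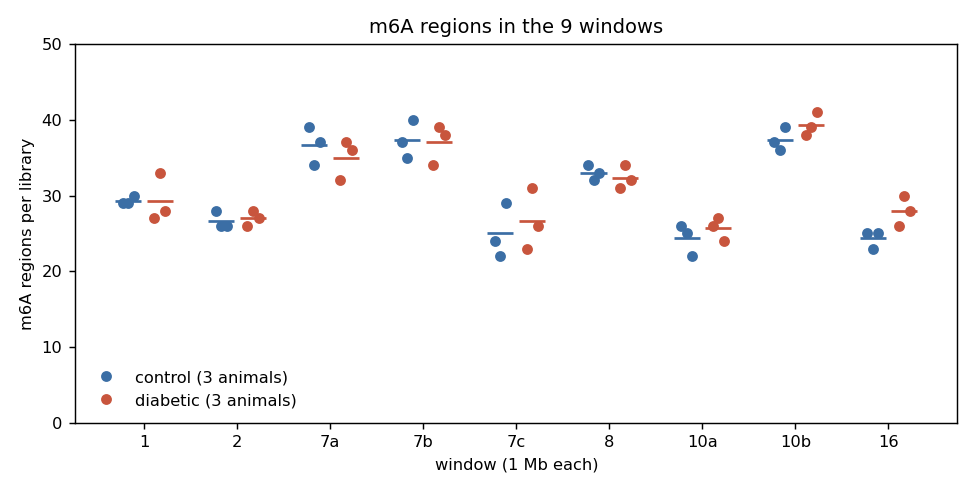
Number of m6A regions (vertical axis) in each 1 Mb window (horizontal axis, named as in the text) for 3 control and 3 diabetic libraries; points are libraries and bars group means. Only in window 16 do all diabetic libraries (26 to 30) lie above all control libraries (23 to 25).

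Diabetic and control retinas had overlapping numbers of m6A regions in these windows. Control replicates 1, 2 and 3 had 279, 262 and 281 regions there, and diabetic replicates 1, 2 and 3 had 263, 298 and 280. The groups overlapped, with the lowest and highest diabetic libraries on either side of most controls. The control mean was 274 ± 10.4 and the diabetic mean 280.3 ± 17.5 (SD, 3 libraries each), a difference of 6.33 regions within the spread of either group (exact two-sided permutation p = 0.6; 3 against 3 cannot go below 0.1). The difference turned to -6.33 when only regions with a fold enrichment of at least 3 counted, to -13.0 with lists of equal length and to -2.5 without diabetic replicate 2.

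The share of each list that lay in the windows also overlapped between groups. Shares were 3.07, 2.88 and 2.77% in control replicates 1, 2 and 3, and 2.70, 2.82 and 2.80% in the diabetic replicates. The overlap ran from 2.77 to 2.82%. Means were 2.91% ± 0.155 and 2.78% ± 0.0644 (SD, n = 3 each), a difference of -0.130 percentage points (exact two-sided permutation p = 0.3). Covered length was 105 ± 12.8 kb in control and 106 ± 8.73 kb in diabetic libraries (SD, 3 libraries each; p = 1 in the exact two-sided permutation test).

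Of the 9 windows, window 16 alone had separate group counts. It held 25, 23 and 25 regions in control replicates 1, 2 and 3, and 26, 30 and 28 in the diabetic replicates. The diabetic mean was 28.0 ± 2.0 against 24.3 ± 1.15 (SD, 3 libraries each), which the exact two-sided permutation test gives its lowest p of 0.1. Among all 718 windows, all diabetic counts lay above all control counts in 5.29% and below them in 1.39%, so 1 window of 9 higher and 0 lower is near that background. With lists of equal length no window of the 9 was separate, and without control replicate 3 or without diabetic replicate 2 there were 2. In covered length 0 of the 9 were separate, where 7.94% of all windows were higher and 0.696% lower. The mean was higher in diabetic libraries in 5 windows, lower in 3 and equal in window 1.

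How the regions lay within a window follows in part from the choice. The 9 windows had a median of 37 union regions against 10 in the other 709 windows. A window with more regions tends to have shorter gaps and can have more chains. The values are given as a description. The median distance from a union region to the next was 3.95 kb in window 8 and 18.5 kb in window 7a, the closest and widest of the 9, and the median over the 9 windows was 8.30 kb against 19.2 kb in the others. Gaps of at most 1 kb made up 24.2% of the gaps, against 21.9% in the others. When regions up to 10 kb apart were joined into chains, the windows had 15 to 27 chains each, with a median of 17 against 6. Among the 9, window 7a had the most chains, and windows 8 and 16 the fewest, 15 each.

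**Figure D2:**
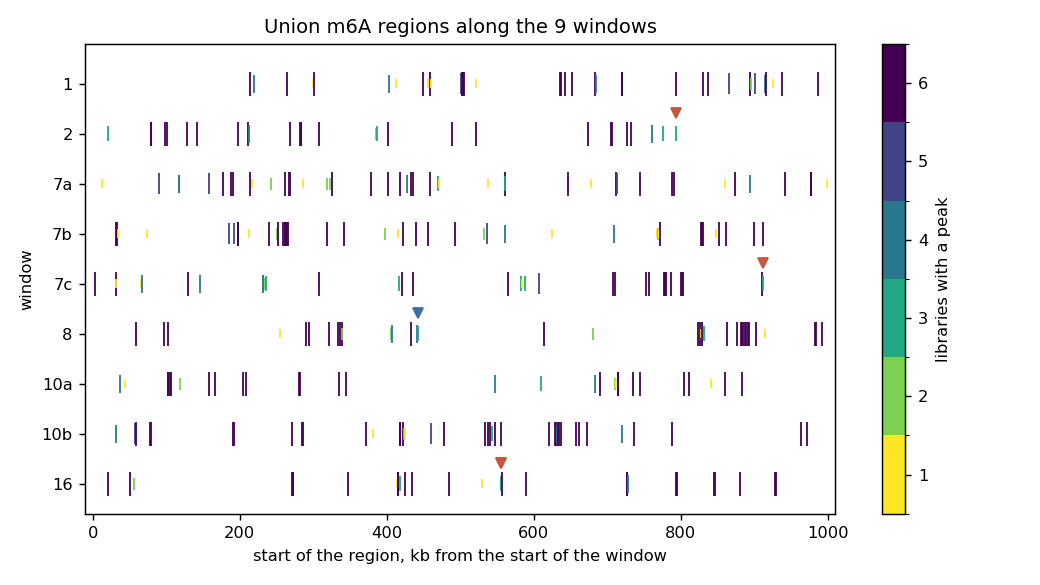
Position of each of the 331 union regions as kb from the start of its window (horizontal axis), 1 row per window; height and colour of a mark give the number of libraries with a peak, and triangles mark regions of every diabetic but no control library (red) or the reverse (blue). Most marks are dark, 214 regions having a peak in all 6 libraries, and the 2 red triangles of window 16 coincide because those regions lie 143 bases apart.

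Most regions of the windows were present in every library. Of the 331 union regions, 214 (64.7%, Wilson 95% interval 59.4 to 69.6%, counting error only) had a peak in all 6 libraries, against 56.9% of all union regions. A shared region counts in every library toward the mean that chose the windows, so the choice itself favours a high shared share. The contrast with the map is therefore given as a description. Shared regions were 432.5 bases wide in the median, and their median fold enrichment over the libraries was 5.61. Found in 1 library only were 44 regions (13.3%, against 14.9% in the rest of the map). Those were narrower and weaker, with medians of 145.5 bases and 2.75-fold enrichment. In the rest of the map, median widths were 437 bases for shared regions and 140 for those of 1 library. A union of several lists can be wider by construction. Fold enrichment is the authors' ratio of IP pileup at the summit to the local input background, with 1 added to each, and it is used here only to describe and rank peaks. The share present in all 6 libraries was lowest in window 7a (53.3%) and highest in windows 16 (75.9%), 10b (75.6%) and 2 (75.0%).

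Of the 44 regions found in a single library, control replicates 1, 2 and 3 held 11, 5 and 10, and the diabetic replicates 2, 14 and 2. Of the 1848 such regions of the whole map, the same libraries held 197, 375 and 413, and 158, 441 and 264. Diabetic replicate 2 held the most in both. Regions missing from a single library numbered 12 in the windows and 916 in the whole map. In the windows control replicates 1, 2 and 3 lacked 5, 1 and 0, and the diabetic replicates 4, 1 and 1, and in the whole map 381, 294 and 44, and 108, 42 and 47. Control replicate 1 lacked the most in both. The window counts are small, and their difference from the map was not tested.

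In width, enrichment and number of summits, no difference between the dense windows and the rest of the map passed the test. Their median width was 294 ± 10.8 bases against 292 ± 9.26 in the rest of the same lists (SD, n = 6 libraries), with the windows wider in 3 libraries and narrower in 3 (exact two-sided sign-flip permutation p = 0.25, Benjamini-Hochberg adjusted p = 0.333 over 4 measures). The median fold enrichment on the log2 scale differed by -0.03 and was lower in 4 of 6 libraries (exact p = 0.125, adjusted p = 0.25). Regions with several summits made up 33.0% ± 2.14 against 32.4% ± 1.12 (SD, n = 6; exact p = 0.469, adjusted p = 0.469). Restricted to peaks of 3-fold enrichment or more, the differences in width and in summits turned to -6.25 bases and -0.977 percentage points. Only 7.14 to 9.68% of the window regions belonged to the most enriched 10% of their list.

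The share of regions whose local background exceeded a floor was lower in the windows in every library, but the difference missed the adjusted threshold. The floor is set by library size and genome, and the caller takes a local input value as background where that is higher. This value can be the input over the caller's extension of 118 to 125 bases, or the mean input over 1 kb or 10 kb. Background above the floor can thus be a short pile-up of input at the summit. The effective genome size given to it, 61.5 Mb per the file headers, is far below that of a rat genome and put the floor at a pileup of 15.9 to 24.3. "Above the floor" and each fold enrichment at the floor refer to that setting. The local background exceeded the floor for 14.7, 13.4 and 13.5% of the window regions in control replicates 1, 2 and 3, against 17.4, 19.1 and 17.4% of the others. In diabetic replicates 1, 2 and 3 the shares were 16.7, 13.1 and 16.4% against 22.1, 17.0 and 18.7%. The windows were lower in 6 of 6 libraries, with a mean difference of -3.99 percentage points (exact two-sided sign-flip permutation p = 0.031, the smallest possible). After Benjamini-Hochberg adjustment over the 4 measures the exact test gave p = 0.125. A measure that alone reaches the smallest possible p cannot pass this adjustment, so the adjusted test does not decide here. At the floor a fold enrichment does not correct for the local amount of RNA.

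**Figure D3:**
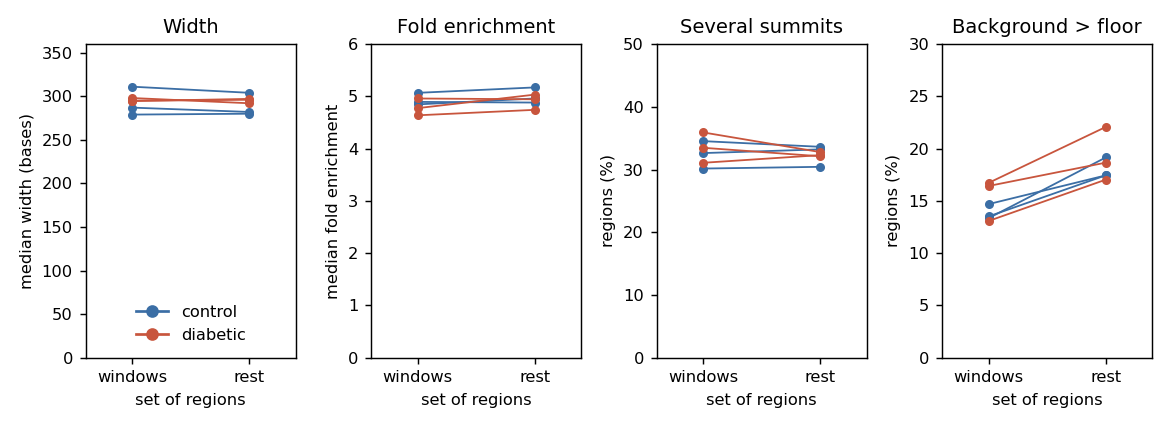
Median width (bases), median fold enrichment, share of regions with several summits and share with background above the floor (percent; vertical axes from 0) for regions inside the 9 windows and for the rest of each list; each line joins the values of 1 library. Lines cross or run level in the first panels, and all 6 rise from windows to rest in the panel on background.

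Compared with each other, many pairs of windows kept 1 direction in all libraries. None passed after adjustment for the number of pairs, but 6 libraries cannot give an exact p below 0.031. A pair can then pass only if enough other pairs also reach that p, however large its own difference. The adjusted test thus does not decide whether a single pair differs. Median width ran from 365.5 ± 43.5 bases in window 8 to 264 ± 20.96 bases in window 10b (SD, n = 6 libraries). The order between them was window 2 (339.5), 7b (312), 10a (306), 7a (301), 16 (290), 1 (265.2) and 7c (264). No neighbours in this order differed beyond their spread (exact p of 0.125 or more). Over all 36 pairs of windows, 19 differed in the same direction in all 6 libraries, the lowest Benjamini-Hochberg adjusted exact p being 0.0592.

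Window 8 also had the most regions with several summits, 48.4% ± 5.83 (SD, n = 6), which is how the caller marks a broad stretch with more than 1 local maximum. Window 10a followed with 40.7% ± 10.4, and 7b, 1 and 2 lay between 35.4 and 36.2%. Window 7a had 29.9%, and windows 10b, 16 and 7c had 24.7, 23.5 and 22.2%. Window 8 exceeded 10a in 6 of 6 libraries, and window 2 exceeded 7a in 6 of 6 (exact p = 0.031, adjusted p = 0.0536 over 36 pairs for each). Other neighbours did not differ beyond their spread. In all, 21 pairs had 1 direction in every library and 0 passed after adjustment, which has the limit given above.

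Enrichment followed another order. Window 16 had the highest median fold enrichment, 5.78 ± 0.435 (SD, n = 6), followed by window 8 with 5.50 ± 0.637. Windows 10a, 2, 7b, 7c, 10b and 7a lay between 4.97 and 4.54, and window 1 was lowest with 4.34 ± 0.289. No neighbours in the order differed beyond their spread, the lowest exact p being 0.0625 for window 8 against 10a. The order by background above the floor started with window 2 (24.3% ± 4.77) and 7a (21.6% ± 5.24) and ended with 10a (9.32% ± 1.80) and 16 (8.97% ± 5.85; SD, n = 6 each). Over all called regions, window 16 thus joined the highest median fold enrichment with a low share of regions with background above the floor. Window 2 had the highest such share. Among regions with a peak in all 6 libraries the order was another one, with window 2 above window 16 in every library. Median percentiles by fold enrichment among these regions were 63.7 to 76.8 in window 2 and 49.3 to 56.0 in window 16.

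Window 10b was the densest of the 9. It held 37, 36 and 39 regions in control replicates 1, 2 and 3, and 38, 39 and 41 in the diabetic replicates. Most diabetic counts were the higher ones, but 39 occurs in both groups. Its 41 union regions included 31 shared by all libraries. Its regions were spread unevenly, with 11 starting between 109600001 and 109700000 and an empty stretch of 175 kb from 109788978 to 109963890. The flanking windows averaged 5.33 and 7.33 regions. The leading region, from 109672210 to 109672868, had fold enrichments of 17.5, 17.6 and 22.7 in control replicates 1 to 3 and 20.1, 16.2 and 16.3 in the diabetic ones. The groups overlapped at that region. The region next in rank was less even: from 109533802 to 109534535 the fold enrichments were 13.8, 24.3 and 19.6 in controls against 12.1, 28.3 and 29.2, low in replicate 1 of both groups. Its background lay above the floor in all 6 libraries, at 1.13 to 2.84 times the floor, and was highest in those same libraries. The widest union region, from 109538436 to 109540633, spans 2198 bases with 5 to 8 summits, but no list held it as 1 region. It joins 2, 2 and 3 called regions of control replicates 1, 2 and 3 and 2, 3 and 2 of the diabetic ones, and only 2 libraries kept it under a reciprocal overlap of 50%.

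Windows 7a and 7b form 2 Mb of continuous high density. Window 7a held 39, 34 and 37 regions in control replicates 1, 2 and 3, and 32, 37 and 36 in the diabetic replicates. Window 7b held 37, 35 and 40, and 34, 39 and 38. In both windows the groups overlapped widely. Density rose and fell steeply at the outer edges, with 4.83 regions on average in the window before 7a and 8.67 in the window after 7b. Neither left a 100 kb tile empty. Window 7a had 27 chains and window 7b had 22.

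The widest union region of the 9 windows lay in 7a, from 11744987 to 11748099, a stretch of 3113 bases with 8 or 9 summits in each library. Control replicate 3 alone held it as 1 called region. The other lists split it into 2 or 3, and 4 libraries kept it under a reciprocal overlap of 50%. Its strongest summit had fold enrichments of 15.9, 10.2 and 15.7 in control replicates 1 to 3, and 13.9, 14.8 and 14.5 in the diabetic ones. All but control replicate 2 lay close together. The most enriched region of the 9 windows was narrow and lay in 7b, from 12862157 to 12862534, with 1 summit in every library. Its fold enrichments were 37.8, 32.3 and 39.9 in control and 37.6, 40.2 and 31.2 in diabetic libraries. Its lowest percentile by fold enrichment among all regions of a list was 98.7. Summits of the 6 libraries fell within 6 bases of each other there. A broad region of 2316 bases in the same window, from 12439780 to 12442095, had 7 or 8 summits and fold enrichments of 19.7 to 26.9.

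Window 7c varied most between libraries, with an SD of 3.54 regions. Control replicates 1, 2 and 3 had 24, 22 and 29 regions, and the diabetic replicates 23, 31 and 26. The highest counts of both groups came from the 2 longest lists. The window ended abruptly, with 0 regions in the next 1 Mb. Its leading region, from 117752444 to 117752875, had fold enrichments of 16.7, 15.7 and 17.2 in control and 14.8, 15.9 and 14.8 in diabetic libraries. These overlap, but in the rank comparison of shared regions below it counts as lower, with a gap of 0.535 percentile points. The region next in rank, from 117756735 to 117757502, lay 3859 bases away and had 17.7, 14.1 and 16.3 against 14.9, 14.9 and 13.7. A diabetic-only region, called in every diabetic library and never in controls, lay from 117912563 to 117912767. Its fold enrichments were 2.86, 3.08 and 3.05, and it lay 1086 bases from a shared region.

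Window 8 had the tightest packing, with 16 regions starting in the 100 kb from 116800001 to 116900000 and an empty stretch of 173 kb before 116614689. It held 34, 32 and 33 regions in control replicates 1, 2 and 3, and 31, 34 and 32 in the diabetic replicates, so the groups overlapped. Its leading region, from 116822895 to 116823783, had fold enrichments of 17.8, 16.3 and 20.5 in control and 17.7, 19.7 and 14.6 in diabetic libraries. Close behind in rank, a region from 116889047 to 116890512 had 4 to 6 summits and fold enrichments of 14.3 to 19.5. At the end of the window a region of 2181 bases, from 116982419 to 116984599, had 7 or 8 summits but moderate fold enrichments of 5.69 to 7.96. Control replicate 2 split it into 3 called regions, and 5 libraries kept it under a reciprocal overlap of 50%. The only control-only region of the 9 windows lay here, from 116441991 to 116442173. Its fold enrichments were 2.48, 2.81 and 2.69 in the 3 control libraries.

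In windows 1 and 10a the counts of the groups overlapped. Window 1 held 29, 29 and 30 regions in control replicates 1, 2 and 3, and 27, 33 and 28 in the diabetic replicates, which spread to either side of the controls. Its leading and widest region, from 198986921 to 198988204, had fold enrichments of 21.2, 17.2 and 27.8 in control and 21.1, 21.6 and 30.04 in diabetic libraries. Window 10a held 26, 25 and 22 regions in control and 26, 27 and 24 in diabetic libraries. It came after a window with 17.2 regions per library and before an almost empty one with 0.167. Its leading region, from 86715368 to 86716011, had fold enrichments of 18.7, 18.8 and 21.3 in control and 20.96, 26.4 and 25.1 in diabetic libraries, which overlap narrowly. In the rank comparison of shared regions below it counts as higher, with a gap of 0.113 percentile points.

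Window 2 held 28, 26 and 26 regions in control replicates 1, 2 and 3, and 26, 28 and 27 in the diabetic replicates, with the lowest SD of the 9 windows, 0.983. The region from 188281578 to 188282957 had fold enrichments of 27.2, 25.8 and 27.6 in control and 29.7, 28.5 and 25.4 in diabetic libraries. Its lowest percentile among all regions of a list was 97.3. Diabetic replicate 3 had it as 2 called regions, the others as 1. The widest union region of the window, from 188283824 to 188286141, began within 1 kb of its end, with a weaker shared region between them, from 188283183 to 188283429. The widest one had 4 to 8 summits and fold enrichments of 13.7 to 25.9. It joins 3, 4 and 1 called regions of control replicates 1, 2 and 3 and 3, 2 and 3 of the diabetic ones, and 2 libraries kept it under a reciprocal overlap of 50%. Near the start of the window, a narrow region from 188079035 to 188079341 had 1 summit and fold enrichments of 17.0 to 21.4. A diabetic-only region lay from 188793636 to 188793925, with weak fold enrichments of 2.60, 2.93 and 2.89.

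Window 16, with separate counts, held 2 of the 4 diabetic-only regions of the windows. The region from 20555288 to 20555472 had fold enrichments of 4.11, 3.73 and 3.55 in diabetic replicates 1, 2 and 3, and the region from 20555616 to 20555755 had 4.44, 3.05 and 3.39. Neither was called in controls. They were followed, within the same 2636 bases, by a shared region from 20557415 to 20557923. Its fold enrichments were 4.39, 5.42 and 5.94 in control and 9.49, 6.80 and 6.55 in diabetic libraries, so that every diabetic library lay above every control library. The 3 regions lie so close together that they cannot count as independent. Elsewhere in the window the leading region, from 20485193 to 20486313, had 26.99, 19.3 and 24.8 in control and 21.4, 22.5 and 22.7 in diabetic libraries, without separation. The next in rank, from 20793824 to 20794143, had 15.7, 15.4 and 18.5 against 19.8, 20.96 and 18.3, with 18.3 below the highest control. In the rank comparison of shared regions below it still counts as higher, with a gap of 0.655 percentile points.

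In all, diabetic-only regions made up 4 of the 331 union regions of the windows, and control-only regions 1. Over the whole map 1.10% of union regions were diabetic-only and 0.201% control-only, and the windows were close to these shares. Depth differed between the libraries. The smaller of IP and input held 8661200, 8175227 and 9030946 reads in control replicates 1, 2 and 3, and 8729247, 10186285 and 12354616 in the diabetic replicates. Diabetic replicates 2 and 3 were thus the deepest, and the part of depth in these shares was not tested. A single region with 3 of 3 against 0 of 3 libraries cannot give a p below 0.1. With a fold enrichment of at least 3, 2 diabetic-only regions, those of window 16, and 0 control-only regions were left. Without control replicate 3 there were 8 diabetic-only regions, and control-only regions numbered 1 to 4 when 1 library was left out.

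Shared regions were also compared by rank. The 7098 regions with a peak in all 6 libraries of the whole map were ranked by fold enrichment within each library, so that every list contributed the same regions. A rank percentile of 100 marks the most enriched of them. The median percentile of the 214 window regions was 50.7, 47.2 and 44.7 in control replicates 1, 2 and 3, and 38.6, 43.1 and 40.0 in the diabetic replicates. All diabetic medians lay below all control medians. When pileup replaced fold enrichment the groups overlapped, with 50.7, 44.8 and 42.8 against 37.1, 44.96 and 38.5.

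More window regions ranked lower in diabetic libraries than higher. All 3 diabetic ranks lay below all 3 control ranks in 28 of the 214 regions (13.1%), against a background of 7.99% of all shared regions. They lay above in 14 (6.54%), against 9.30%. Regions ranked lower were 66.7% of the separate ones in the windows, and 46.2% in the whole map. When 1 library was left out, that share was 61.2 to 74.0% in the windows and 46.3 to 48.9% in the whole map, and with ranks by pileup it was 74.0% and 48.5%. The total of separate regions, 42, rose to 73 without control replicate 2, to 67 without control replicate 3 or diabetic replicate 1 and to 69 without diabetic replicate 2. With fewer libraries, ranks separate more easily. Neighbouring regions are not independent, and the difference between windows and map was not tested.

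Median ranks of single windows were separate in the 3 windows of chromosome 7. In window 7b the median percentile of 27 shared regions was 71.1, 49.8 and 48.6 in control replicates 1, 2 and 3, and 39.2, 40.9 and 34.3 in the diabetic replicates. In window 7a it was 54.9, 48.6 and 47.9 against 44.8, 46.96 and 44.1, and in window 7c 45.7, 49.5 and 45.5 against 39.2, 43.6 and 39.7. All diabetic medians were thus the lower ones there, with the smallest distance in 7a. Of all 558 windows with at least 5 shared regions, 9.32% were lower in this sense and 7.89% higher. Window 2 had the highest medians, 63.7 to 76.8 over the 6 libraries, and its groups overlapped, as did those of windows 1, 8, 10a, 10b and 16. With ranks by pileup, window 7b stayed separate at 66.8, 45.1 and 45.1 against 33.4, 37.1 and 33.5, while windows 7a and 7c overlapped and window 10a became separate, at 40.9, 42.4 and 35.8 against 25.5, 34.6 and 35.3. These medians were compared after the ranks had been seen.

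**Figure D4:**
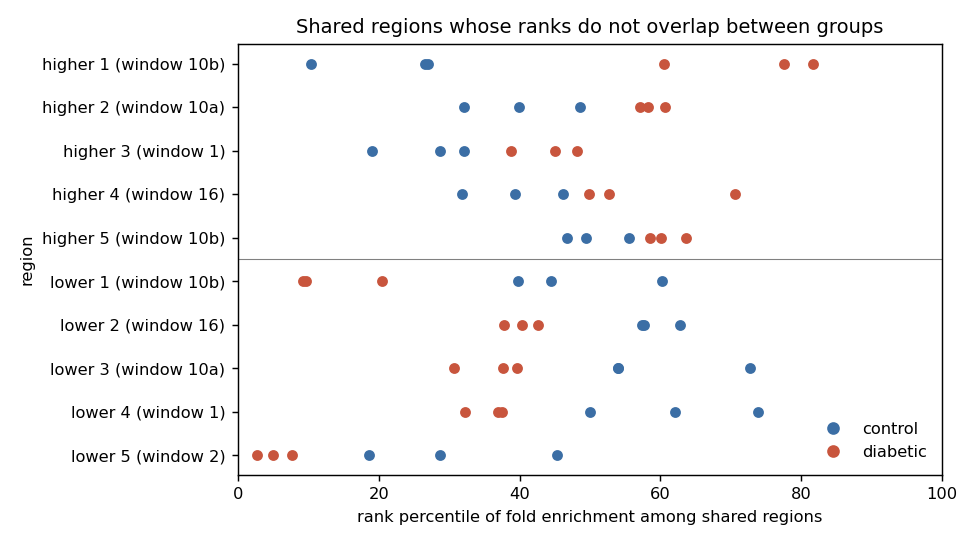
Rank percentile by fold enrichment among the 7098 shared regions (horizontal axis) in 6 libraries, for the 5 window regions with the widest gap between groups in each direction (rows). Points are libraries; the gap is widest in the top row, where controls lie at 10.4 to 26.97 and diabetic libraries at 60.5 to 81.7.

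The widest separation lay in window 10b, from 109422547 to 109423082. This region of 536 bases had fold enrichments of 3.16, 4.07 and 4.91 in control replicates 1, 2 and 3, and 7.69, 11.9 and 12.7 in the diabetic replicates. Every diabetic library was well above every control library. In rank percentile, controls had 10.4, 26.97 and 26.6 and diabetic libraries 60.5, 77.5 and 81.7. The gap of 33.5 points holds place 2 among the 660 regions ranked higher in the whole map. The local background was at the floor in 5 libraries and 1.07 times the floor in diabetic replicate 3, so the amount of its RNA is not corrected for.

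Other regions ranked higher were closer to their controls. In window 10a the region from 86104609 to 86105156 had fold enrichments of 5.01, 5.66 and 5.32 in control and 7.35, 8.13 and 7.09 in diabetic libraries. Its neighbour 985 bases before, from 86102769 to 86103623, had 14.9, 19.4 and 17.2 against 23.6, 30.9 and 25.0, and was also separate, with a gap of 1.34 points. Control replicate 2 split that neighbour into 2 called regions, and 5 libraries kept it under a reciprocal overlap of 50%. Both regions were thus higher in every diabetic library. In window 1 the region from 198829759 to 198830393 had 3.66, 4.401 and 5.07 against 6.21, 6.31 and 5.20. Next came the shared region of window 16 described above, with a gap of 3.71 points. The last, in window 10b from 109058478 to 109058723, had 5.52, 5.75 and 7.75 against 7.61, 7.85 and 8.09, where the fold enrichments overlap and only the ranks are separate.

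Among the regions ranked lower the widest gap also lay in window 10b. The region from 109633195 to 109633479 had fold enrichments of 5.35, 6.86 and 5.996 in control replicates 1, 2 and 3, and 4.07, 3.58 and 3.16 in the diabetic replicates. Its percentiles were 44.5, 60.3 and 39.8 against 20.4, 9.64 and 9.23, and the gap of 19.4 points holds place 2 among the 567 regions ranked lower in the whole map. The adjacent region from 109633810 to 109634087, 330 bases away, was separate in the same direction, with a gap of 0.564 points. Window 10b thus held the widest gap of the 9 windows in either direction.

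The next regions ranked lower lay in 4 other windows. In window 16 the region from 20271528 to 20272007 had fold enrichments of 6.59, 7.19 and 8.01 in control and 5.29, 5.87 and 5.55 in diabetic libraries. In window 10a the region from 86803961 to 86804321 had 9.07, 6.17 and 7.55 against 4.77, 5.65 and 5.28. In window 1 the region from 198916079 to 198916261 had 9.30, 5.81 and 8.71 against 4.86, 5.65 and 5.05. In these 3 regions every diabetic value lay below every control value, and in the last by the least margin. The local background of the region in window 1 was above the floor in 4 of the libraries, at up to 1.27 times the floor.

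Window 2 had the most regions ranked lower, 6 of its 21 shared regions, with 1 ranked higher. The leading one, from 188705139 to 188705669, had fold enrichments of 5.41, 3.59 and 5.07 in control replicates 1, 2 and 3, and 2.67, 3.42 and 2.85 in the diabetic replicates. It had 2 or 3 summits, and its strongest summit lay up to 263 bases apart between libraries. Its values thus need not belong to the same summit. Within 58.6 kb, from 188674494 to 188733074, 4 of 5 shared regions ranked lower. The region 613 bases on, from 188706283 to 188707167, had 3.77, 3.40 and 5.07 against 3.15, 2.81 and 2.70. This stretch was picked after its values were seen. Window 7a had 4 of 24 shared regions ranked lower and 0 higher. Windows 7b (27 shared regions) and 7c (19) had 3 lower and 1 higher each, and window 16 (22) had 4 lower and 2 higher. In windows 10a (21) and 10b (31), 3 regions each ranked higher and 2 lower. In window 8 (27), 1 ranked higher and 2 lower, and in window 1 (22), 2 and 2. Over the whole map 7.99% of shared regions ranked lower and 9.30% higher. The counts of single windows are small, and their difference from these shares was not tested.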

How the data were processed

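The submitters' processing notes name MACS2 2.1.0, BWA 0.7.12, fastp 0.19.11 and CASAVA. Peaks were called by the authors for every replicate alone, IP against input, at a q threshold of 0.05, per the file headers. The headers also give an extension of 118 to 125 bases, all duplicates kept and down-scaling of the larger library. Kept duplicates count toward every peak, and BWA leaves reads over exon junctions unsplit. The labels' protocols state fragments of about 100 nt. Deposited values used were the pileup, a coverage signal, the authors' −log10 p and −log10 q for every summit, and their fold enrichment, a ratio. Damaged headers of both −log10 columns in the deposited lists were resolved by column order and values.

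Lines sharing start and end were joined to 1 region, with the values of its most significant summit by −log10 p. Start positions decided membership in a window. Background came from adding 1 to the pileup, dividing by fold enrichment and subtracting 1, and lay above the floor when over it by more than 1%. Tests were exact two-sided permutation tests over libraries (3 against 3), and sign-flip tests over 6 libraries with Benjamini-Hochberg adjustment, run in Python 3.11.15 with numpy 2.4.6, pandas 2.3.3 and scipy 1.17.1, and tested on simulated data. Whether libraries are separate animals is known only from replicate numbers and weights, so p-values measure the spread between these samples. Depth per library limits how weak a peak can be called.

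Members, lists and tests were chosen with earlier results of these data known. The naming rule took, in each window, the 3 shared regions with the highest value of their lowest percentile in a list (the text prints the leading ones), the widest region and all group-only regions, and over all windows the 5 shared regions in each direction with the widest rank gap. Other regions were named after their values were seen. Alternatives were stricter peaks (−log10 q from 5, or fold from 3), equal list lengths, reciprocal overlap of 50%, membership by summit, counting of summits, ranks by pileup, the replicate block and leaving out each library. Chromosome 1 has peaks up to 282 Mb, beyond the 270 Mb at which its genes end in the GRCr8 gene table, so positions were not turned into gene names and no sequence is printed.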

Additional observations from a re-analysis of the deposited data

How the results depend on the processing

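With 3 libraries a group, no exact test between groups can reach 0.05. The share of regions in the windows kept its direction in all 12 alternatives, from -0.200 to -0.0462 percentage points. The number of regions reversed to -6.33 when peaks needed a 3-fold enrichment, to -13.0 with equal lengths and to -2.5 without diabetic replicate 2, in a leave-one-out range of -2.5 to 15.0. Windows with separate counts numbered 0 with equal lengths and 1 to 2 when 1 library was left out. Regions in all 6 libraries ranged from 164 to 220. Requiring a 3-fold enrichment left 2 diabetic-only and 0 control-only regions, and turned the difference in width to -6.25 bases and that in summits to -0.977 percentage points. Control-only regions also numbered 0 with a −log10 q from 5 or equal lengths, and 2 with reciprocal overlap. Leaving out 1 library gave 4 to 8 diabetic-only regions, 1 to 4 control-only regions and 53 to 73 separate ranks. Shorter lists and fewer libraries move these counts by construction. Otherwise the cause was not tested.

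With the replicate block, the number of regions differed by 6.33 (exact p = 1) and the share by -0.130 percentage points (exact p = 0.5, smallest possible 0.25). Deviations of same-numbered libraries over 718 windows correlated at 0.0450, -0.0924 and -0.155. Differently numbered libraries of the 2 groups correlated at -0.159 to 0.235, so the numbers were not taken to pair the libraries. Depth limits the weak regions, since the lists hold no value for a region that a library lacks.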

Other observations

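Of the 214 shared regions of the windows, 162 had a background at the floor in all 6 libraries, 18 above it in all 6 and 34 in some. The region with the highest background, picked after its values were seen, lay in window 8 from 116433313 to 116434302. Input background there was 54.5 to 88.4 times the floor, and fold enrichments were low, at 1.56 to 2.83. A region in window 10b from 109620483 to 109620951 had a background of 27.7 to 51.1 times the floor and fold enrichments of 2.09 to 4.44. In window 7b, a region from 12239807 to 12241312 combined 8.58 to 28.2 times the floor with fold enrichments of 6.88 to 17.8.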
